A study of Caenorhabditis elegans with 3 samples.

Results

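Nematode sperm carry several families of small, sperm-specific proteins. Here 39 genes of 8 families, named for sperm proteins or as nematode-specific peptides, were examined in Caenorhabditis elegans hermaphrodites. The worms were around the last larval stage (L4) and the start of adult life. The members were all genes with a spot of their own on the array and a symbol with the prefix ssp-, ssq-, sss-, nspa-, nspc-, nspd-, smz- or spch- and a number. They were 39 of the 15119 genes measured on every array, and of the 68 genes that the RefSeq gene table (assembly WBcel235) lists under these prefixes. The other 29 were not analysed here. Of the members, 37 had 1 spot, and ssp-31 and ssp-37 had 2.

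The data came from 3 arrays with 2 channels each. Channel 2 held RNA of 1 of 3 numbered preps of hermaphrodites at a stage labelled TP06, late L4/young adult, and channel 1 held a mixed wild-type reference that all arrays shared. The labels give neither the genotype and strain of the staged worms nor the stages that make up the reference, and nothing says that the preps were separate cultures, so each p-value covers only prep-to-prep spread, which may be technical. The deposited value is a log2 ratio whose direction is not stated, and positive values are read throughout as higher in the staged worms, the likely direction. With the opposite direction every higher and lower would turn.

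A hermaphrodite makes its sperm during the last larval stage and then switches to oocytes for the rest of its life. Spermatogenic genes are transcribed before the meiotic divisions, because the finished spermatid makes no new RNA and has no ribosomes. It keeps a compact chromatin, a store of major sperm protein (MSP) that builds the cytoskeleton of the crawling cell, and membranous organelles that fuse with the surface when the sperm is activated. The families described here take their names from sperm proteins of these compartments or from the wider class of nematode-specific peptides. In RNA of whole worms, fewer cells making sperm and less RNA per cell cannot be told apart.

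Most of the genes were higher in the staged worms. Of the 39 members, 28 were higher and 3 lower, while 8 missed the threshold (limma, two-sided, Benjamini-Hochberg adjusted p under the threshold of 0.05 over all genes), while 11.3% of all genes tested were called higher and 9.37% lower. The members' median log2 ratio in preps 1, 2 and 3 was 1.59, 1.56 and 2.04, which averaged 1.73 ± 0.27 (SD, n = 3). The median over all genes was 0.04, -0.09 and -0.06 in preps 1, 2 and 3. A mean at or above 3 on the log2 scale, that is 8-fold, was reached by 10 members (25.6%), against 70 of all genes (0.463%), so members made up 14.3% of the genes that far above the reference. They were spch-3, spch-2, smz-2, smz-1, sss-2, sss-1, ssp-16, ssq-1, ssq-2 and nspd-7. In the plot of single values, 31 members lay above 0 in every prep (79.5%), against 24.9% of all genes.

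**Figure D1:**
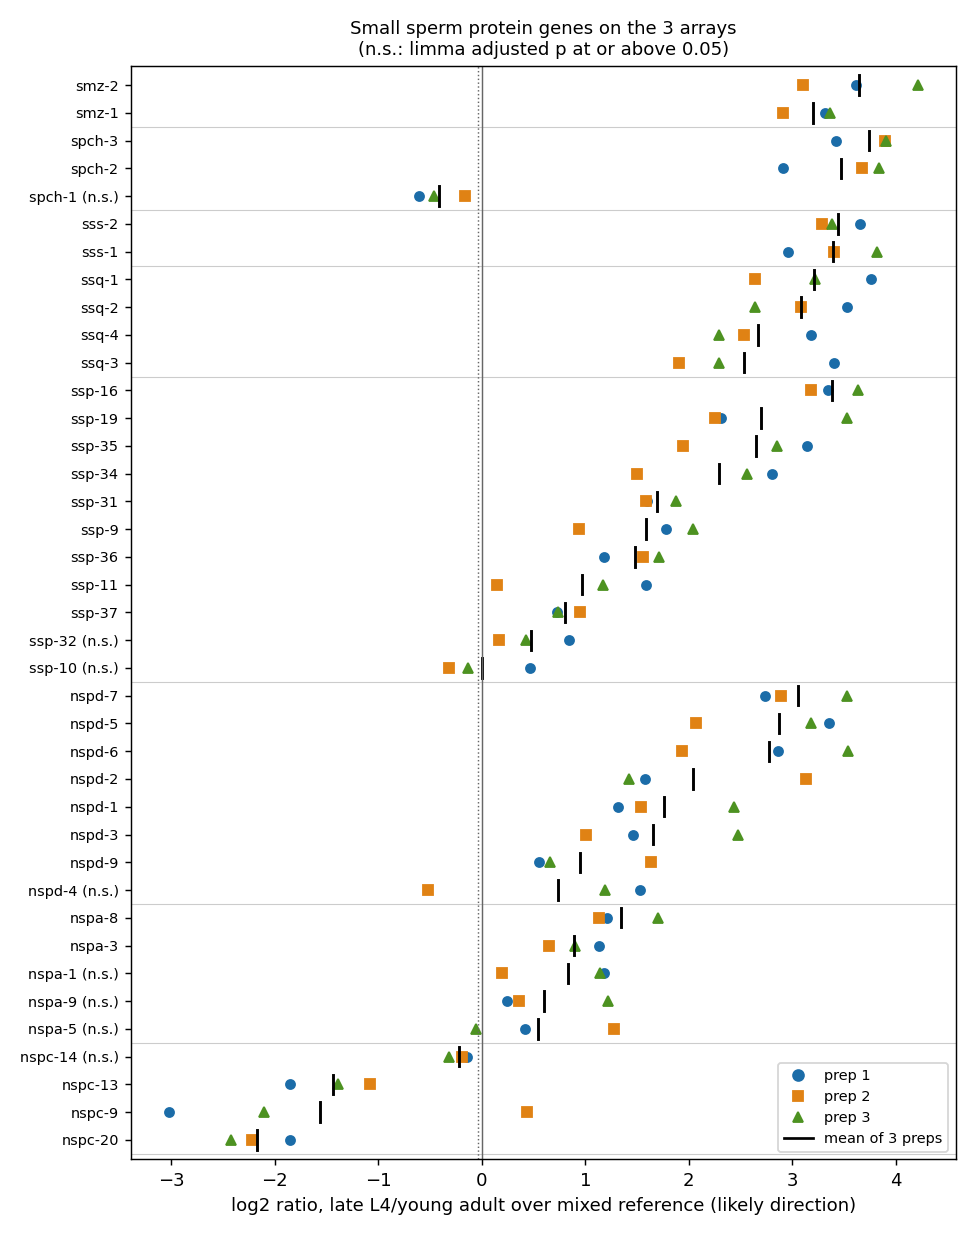
Log2 ratio of each of the 39 genes in each prep (points) with the mean of the 3 preps (black bars), by family from top to bottom; the dotted line is the median of all genes and n.s. marks genes that did not pass. The smz, sss and ssq genes and 2 of 3 spch genes sit far to the right, the ssp and nspd genes spread widely, and the nspc points lie left of 0 except that of nspc-9 in prep 2, at 0.44.

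The spch genes encode basic proteins enriched in sperm chromatin, which pack DNA as protamines do in other animals. Of the 3, 2 were among the highest of all genes and the other was not. The gene spch-3 stood at 3.42, 3.89 and 3.91 in preps 1, 2 and 3, a mean log2 ratio of 3.74 ± 0.27 (SD, n = 3) or 13.4-fold (limma adjusted p = 8.70e-06), and ranked 12 of 15119 genes. The gene spch-2 stood at 2.91, 3.68 and 3.83, averaging 3.47 ± 0.49 or 11.1-fold (limma adjusted p = 1.40e-05). In both, prep 1 had the lowest value. The gene spch-1 stood at -0.61, -0.16 and -0.47, averaging -0.41 ± 0.23, and did not pass (limma adjusted p = 0.272). Its highest value lay more than 3 log2 units below the lowest of the other two, so the family split without overlap. Each spch gene rests on 1 spot.

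The smz genes are named for sperm, meiosis and the PDZ domain, a fold that binds the tails of other proteins. Both were higher in every prep. The gene smz-2 stood at 3.61, 3.10 and 4.21 in preps 1, 2 and 3, averaging 3.64 ± 0.56 or 12.5-fold (limma adjusted p = 1.31e-05), and ranked 15 among all genes. The gene smz-1 stood at 3.32, 2.91 and 3.36, averaging 3.20 ± 0.25 or 9.17-fold. Values of the pair overlapped across the preps.

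The sss genes form class S of the sperm-specific families, and the ssq genes class Q. All 6 were higher, and none fell under 1.9 in any prep. The gene sss-2 stood at 3.65, 3.29 and 3.39, averaging 3.44 ± 0.19 or 10.9-fold (limma adjusted p = 9.92e-06), and sss-1 at 2.95, 3.40 and 3.81, averaging 3.39 ± 0.43 or 10.5-fold. The RefSeq table lists sss-2 as a pseudogene, while its spot gave a ratio as high as that of sss-1. Among the class Q genes, ssq-1 stood at 3.76, 2.64 and 3.22, averaging 3.21 ± 0.56 or 9.23-fold (limma adjusted p = 2.57e-05). The gene ssq-2 stood at 3.53, 3.09 and 2.64, averaging 3.09 ± 0.44 or 8.50-fold. Prep 1 held the highest value of each ssq gene, in contrast to the spch genes. The remaining pair was ssq-4 at 3.18, 2.53 and 2.29, averaging 2.67 ± 0.46, and ssq-3 at 3.40, 1.91 and 2.29, averaging 2.53 ± 0.78 (limma adjusted p = 2.00e-04 for ssq-3). The 4 genes overlapped in their values.

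The ssp genes form class P, small proteins several of which consist of a single MSP domain. Of 11 measured, 9 were higher and 2 did not pass, with 0 lower by limma. The same 9 genes had an unadjusted p under 0.05, as did 5092 of all 15119 genes tested. Means of the 11 ran from 0.01 to 3.39. The highest, ssp-16, stood at 3.34, 3.18 and 3.63 in preps 1, 2 and 3, averaging 3.39 ± 0.23 or 10.4-fold (limma adjusted p = 1.07e-05). Next came ssp-19, at 2.31, 2.25 and 3.53, averaging 2.69 ± 0.72 or 6.47-fold, with its highest value in prep 3. The third was ssp-35, at 3.14, 1.94 and 2.85, averaging 2.65 ± 0.63 or 6.26-fold. Prep 2 was the lowest of the 3 preps for each of these.

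In the middle of the family, ssp-34, ssp-31, ssp-9 and ssp-36 had means of 2.29 ± 0.70, 1.69 ± 0.16, 1.58 ± 0.58 and 1.48 ± 0.27. The 2 spots of ssp-31 read 1.56, 1.59 and 1.48 at one position and 1.64, 1.59 and 2.28 at the other, in preps 1, 2 and 3, so they agreed closely in preps 1 and 2 and differed by 0.8 in prep 3. The call of ssp-11, at 1.59, 0.14 and 1.17 and a mean of 0.97 ± 0.74 (limma adjusted p = 0.0407), was lost without prep 1 (0.66) or prep 3 (0.87). That of ssp-37, at 0.72, 0.95 and 0.73 and a mean of 0.80 ± 0.13 (limma adjusted p = 0.0359), was lost without any one of the preps, although the preps agreed closely; its 2 spots, at 0.32, 1.38 and 0.97 and at 1.13, 0.51 and 0.49, differed in which prep was highest. At the bottom, ssp-32 stood at 0.84, 0.16 and 0.42, averaging 0.48 ± 0.34 (limma adjusted p = 0.215), and ssp-10 at 0.47, -0.31 and -0.14, averaging 0.01 ± 0.41 (limma adjusted p = 0.991). The values of ssp-10 and those of ssp-16 were more than 2 log2 units apart in every prep.

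The nspd genes are group D of the nematode-specific peptide family, whose proteins have been found in sperm. Of 8 measured, 7 were higher and 1 did not pass, and the spread between preps was wide, with a median SD of 0.73 against 0.39 over all genes. The highest was nspd-7, at 2.74, 2.89 and 3.53 in preps 1, 2 and 3, averaging 3.05 ± 0.42 or 8.30-fold (limma adjusted p = 2.55e-05). The next were nspd-5, at 3.36, 2.07 and 3.18, averaging 2.87 ± 0.70 or 7.30-fold, and nspd-6, at 2.86, 1.94 and 3.53, averaging 2.78 ± 0.80 or 6.86-fold. For these 3 genes the lowest prep still exceeded 1.9.

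The other group D genes differed in which prep was high. For nspd-2, at 1.58, 3.13 and 1.42 and a mean of 2.04 ± 0.94 (limma adjusted p = 0.00133), prep 2 stood apart above the others. The same held for nspd-9, at 0.56, 1.64 and 0.66 and a mean of 0.95 ± 0.60 (limma adjusted p = 0.0324), whose call was lost without prep 1 (1.15) or prep 2 (0.61). For nspd-4, at 1.53, -0.52 and 1.19 and a mean of 0.74 ± 1.10, prep 2 stood apart below. This gene did not pass (limma adjusted p = 0.176), and without prep 2 it passed at 1.36. In between, nspd-1 had a mean of 1.76 ± 0.60 and nspd-3 of 1.65 ± 0.75, both with their highest value in prep 3.

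The nspa genes, group A of the nematode-specific peptides, stood closer to the reference than the families above. Of 5 measured, 2 were higher and 3 did not pass, and 4 had an unadjusted p under 0.05, against 5092 of all 15119 genes. The highest, nspa-8, stood at 1.21, 1.13 and 1.70 in preps 1, 2 and 3, averaging 1.35 ± 0.31 or 2.55-fold (limma adjusted p = 0.00301). The gene nspa-3 stood at 1.13, 0.65 and 0.90, averaging 0.89 ± 0.24 (limma adjusted p = 0.0247), and its call was lost without prep 1 (0.77) or prep 3 (0.89). The gene nspa-1, at 1.18, 0.19 and 1.14 and a mean of 0.84 ± 0.56, lay just outside the threshold (limma adjusted p = 0.0511) and passed without prep 2 (1.16). The others were nspa-9, at 0.24, 0.36 and 1.22, averaging 0.60 ± 0.53, and nspa-5, at 0.41, 1.28 and -0.05, averaging 0.55 ± 0.68. Each of these 2 had its high value in a different prep.

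The nspc genes, group C of the same peptides, had mean log2 ratios below 0. Of 4 measured, 0 were higher by limma, 3 were lower and 1 did not pass. The same 3 had an unadjusted p under 0.05, against 5092 of all 15119 genes. The lowest, nspc-20, stood at -1.86, -2.22 and -2.43 in preps 1, 2 and 3, averaging -2.17 ± 0.29 or 4.50-fold lower (limma adjusted p = 1.51e-04). The gene nspc-13 stood at -1.86, -1.08 and -1.39, averaging -1.44 ± 0.39 or 2.72-fold lower (limma adjusted p = 0.00233). Both were below the reference in every prep. The gene nspc-9 stood at -3.02, 0.44 and -2.11, so prep 2 had the opposite sign. Its mean of -1.56 ± 1.79 passed narrowly (limma adjusted p = 0.0453), and without prep 1 it was -0.83 (limma adjusted p = 0.348). The gene nspc-14, at -0.14, -0.19 and -0.31, averaging -0.22 ± 0.09, did not pass (limma adjusted p = 0.578). The RefSeq table lists 20 nspc genes, so these 4 are a small part of the group.

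**Figure D2:**
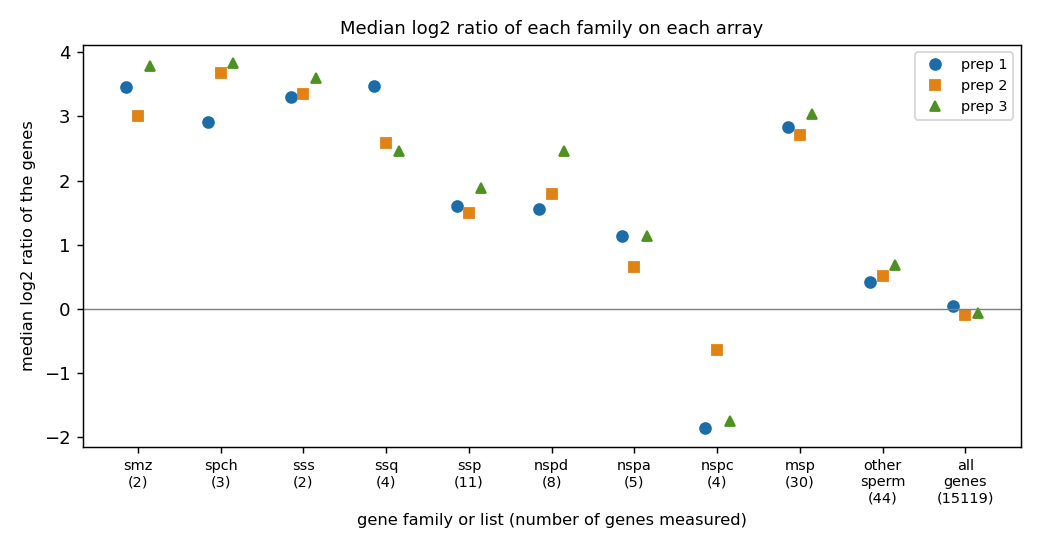
Median log2 ratio of each family in each prep (points), with the number of genes measured in brackets. Beside them stand the msp genes, the other sperm genes pooled with the nspb genes, and all genes tested. The smz, spch and sss medians lie above the msp medians in every prep, the ssp and nspd medians below them, and the nspc median is below 0 in every prep.

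The members were set beside the major sperm protein genes and beside other genes of sperm formation and function. Of 30 msp genes, 29 were higher and msp-38, at -0.19 ± 0.49, did not pass, with 0 lower by limma and medians of 2.83, 2.72 and 3.03 in preps 1, 2 and 3. All 39 members, counted above, had lower medians of 1.59, 1.56 and 2.04. The third list held 50 named genes of sperm formation, activation and fertilization, of which 35 were measured, and the 9 measured nspb genes, group B of the nematode-specific peptides. Of these 44, 16 were higher (36.4%), 2 lower (4.55%) and 26 did not pass, with medians of 0.43, 0.51 and 0.68. Over all genes, 11.3% were higher and 9.37% lower. Without the nspb genes, 14 of 35 were higher (40%) and 2 lower, with medians of 0.59, 0.52 and 0.55. The highest were msd-4 at 4.02 ± 0.57 and msd-3 at 3.21 ± 0.43, both MSP domain genes, and gsp-3 at 3.23 ± 0.58, which encodes a protein phosphatase of sperm. Other msd genes of the list, msd-2 at -0.09 ± 0.19 and msd-1 at -0.21 ± 0.05, did not pass. The lowest of the list were swm-1 at -1.35 ± 0.30, which encodes a protease inhibitor that delays sperm activation in males, and the activation gene spe-27 at -0.87 ± 0.22. Next above them was elt-1 at -0.80 ± 0.55, a GATA transcription factor, which did not pass. Over the whole distribution, the members ran from the nspc genes below the median of all genes to the range of the msp genes.

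**Figure D3:**
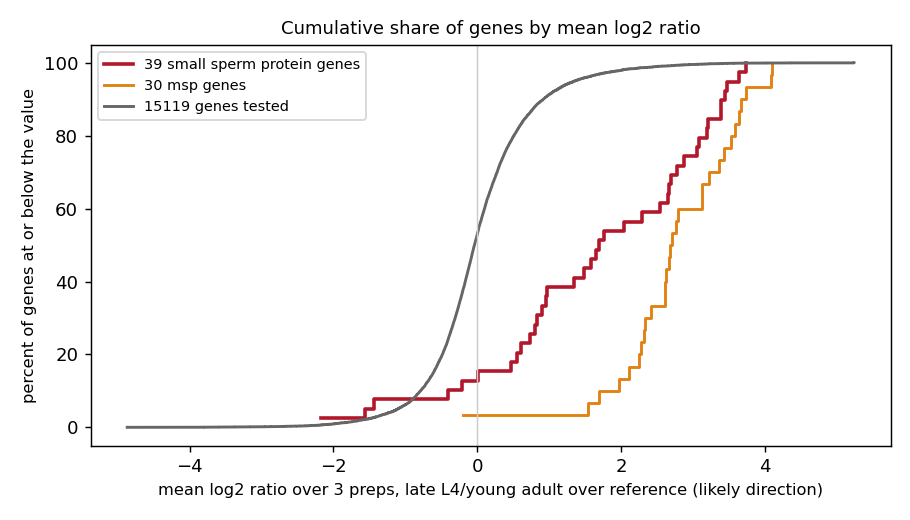
Percent of genes at or below each mean log2 ratio, for the 39 members, the 30 msp genes and the 15119 genes tested. The members' curve starts below 0 with the nspc genes and spch-1, climbs through 1 to 3 where the msp genes also lie, and ends at 3.74.

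The genes lie on every chromosome of the assembly, and their place there went with their values in part. The 8 members on chromosome I, which include spch-2, spch-3, smz-2 and ssp-16, were all higher, as were 14 of the 17 on chromosome IV, which hold all ssq genes. Of all genes on I and IV, 14% and 16.9% were called higher. The 5 members on X were the 4 nspc genes and nspa-9, of which 0 were higher by limma and 3 lower. Among all genes on X, 4.84% passed as higher and 12.7% as lower. On II, III and V, 1 of 2, 1 of 1 and 4 of 6 members were higher, against 12.7%, 14.5% and 7.87% of all genes there. Family and chromosome cannot be told apart for nspc, all on X, or for ssq, all on IV.

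Many members have another member or an msp gene close by. With protein-coding genes counted in chromosome order, 23 of the 39 had another member within 10 genes on either side (59%), against 414 of 14535 genes tested that could be placed (2.85%). An msp gene lay that close to 9 members (23.1%), against 250 of those 14535 genes (1.72%). Neighbours often differed in level. On chromosome IV, ssq-2 lies between ssp-9 and ssp-11, and stood at 3.09 against their 1.58 and 0.97. In the same way ssq-1, at 3.21, lies next to ssp-10, at 0.01, and values of that pair did not overlap. Between sss-1 at 3.39 and ssp-32 at 0.48 lies msp-77 at 3.53 ± 0.35. The gene smz-1, at 3.20, is next to spe-44, a transcription regulator of sperm formation, which stood at 1.24, -0.42 and 0.20 in preps 1, 2 and 3 and did not pass.

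A run on chromosome I was high throughout. It holds nspd-1, spch-3, T27A3.5 and ssp-16 in that order, at 1.76, 3.74, 2.05 ± 0.67 and 3.39. Elsewhere nspd-3 and nspd-6 flank C24D10.2, at 2.11 ± 0.93, which has only a sequence name. Of the 50 measured genes directly next to a member that were neither members nor msp genes, 14 (28%) were called higher and 3 (6%) lower. Of the 381 such genes within 10 places, 61 (16%) were higher and 36 (9.45%) lower. Over all genes tested, 11.3% were higher and 9.37% lower. Chromosome IV holds 17 of the members, and 16.9% of all genes on it were higher. Spots with close numbers can share an effect of position on the array. By the first spot of each gene, the members were spread over 20 of 32 equal runs of spot numbers, with at most 4 in a run. The second spot of ssp-31 lay in run 24, which also held nspa-5, nspa-8, nspc-14 and nspc-20. Some members close on a chromosome also had close spot numbers, as spch-3 and nspd-1 (660 and 668) and ssq-2 and ssq-4 (1828 and 1836). All nspc genes measured lay in runs 24 and 32. The members' median log2 ratio was 1.68 after each array was centred within the 32 runs. Effects of position within a run were not tested.

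**Figure D4:**
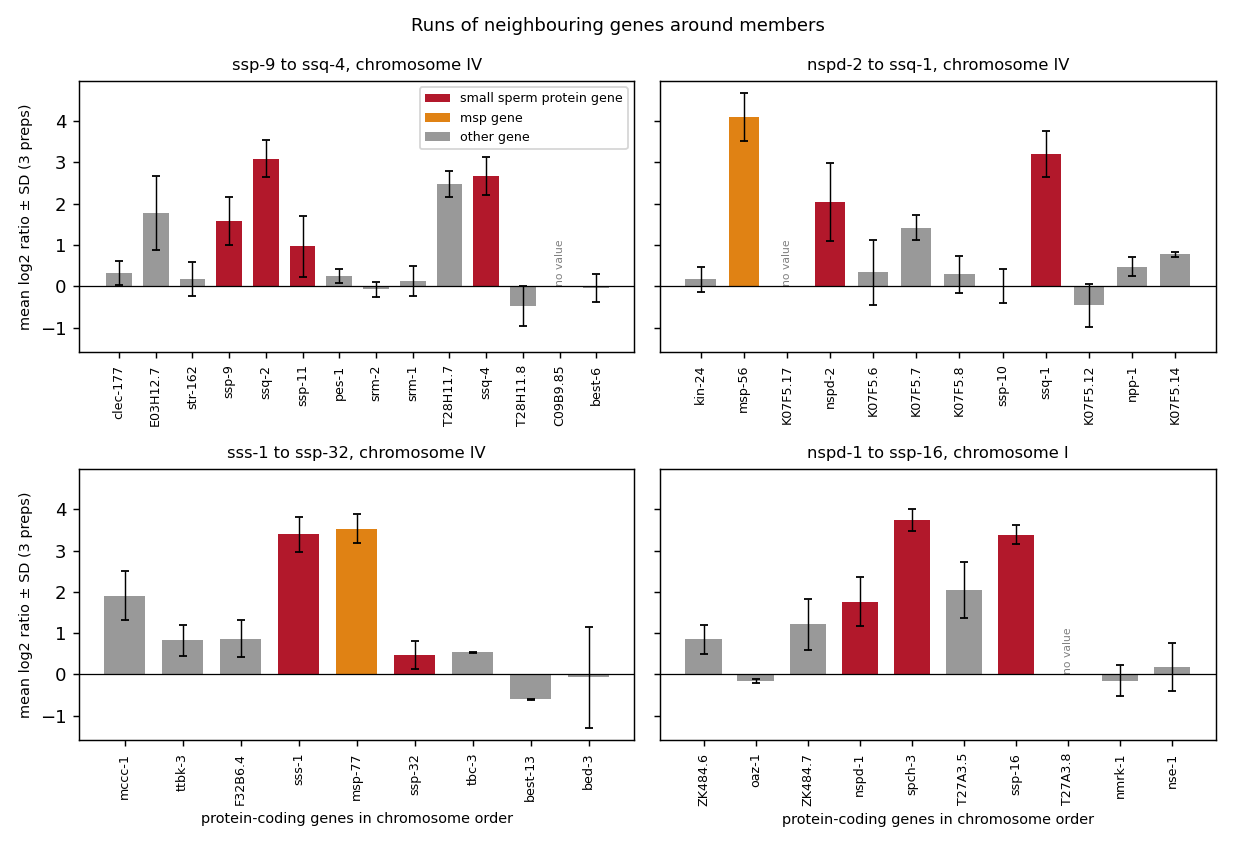
Mean log2 ratio (bars) with SD over 3 preps (error bars) of protein-coding genes in chromosome order around members, in 4 runs; red bars are members, orange bars msp genes and grey bars other genes. In places, high and low genes lie side by side in the runs on chromosome IV, as with ssp-10 at 0.01 beside ssq-1 at 3.21. The run from nspd-1 to ssp-16 on chromosome I is high throughout.

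The preps did not weigh equally on the members. Prep 2 gave the lowest of the 3 values for 21 members (53.8%), prep 1 for 12 and prep 3 for 6 (15.4%), whereas each prep was lowest for 32.7% to 34.3% of all genes. The share of all genes with prep 2 lowest differed by chromosome. It was 46.2%, 45.9% and 44.2% on I, II and III, 36.1% on IV, 24.8% on V and 15.4% on X. For ssp genes prep 2 was lowest in 9 of 11, and for msp genes in 20 of 30. For the spch genes prep 1 was lowest in 3 of 3, and for the ssq genes preps 2 and 3 were lowest in 2 each. The median SD of a member was 0.49, against 0.39 over all genes.

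Between arrays, Pearson's r across all genes was 0.65 to 0.68 and Spearman's rho was 0.57 to 0.58; genes are not independent replicates. Lists of marker genes fixed by name were read as ratios to the mixed reference, which cannot give the makeup of the samples. Over all genes, 11.3% were called higher and 9.37% lower. Of 28 msp markers of sperm, all among the msp genes above, 27 were higher. Of 14 oocyte and eggshell genes, 2 were higher and 12 did not pass, with medians of 1.43, -0.08 and -0.19 in preps 1, 2 and 3, so prep 1 was high for these. Adult cuticle genes were higher in 5 of 7, with medians of 1.29, 1.82 and 2.48. Of 3 yolk protein genes and 9 genes of male neurons, 0 passed limma's test. An unadjusted p under 0.05 was reached by 0 of these, against 5092 of all 15119 genes. Of 7 embryonic genes, 3 were lower. The part of these differences between preps in the members' values was not tested.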

How the data were processed

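The deposited table gives, for 20000 spots, a log2 ratio on each array, with values for 19927, 19825 and 19873 spots in preps 1, 2 and 3. The base was checked on the values: on each array 100% of the ratios under 0.6 (2 raised to the deposited value) were multiples of 0.001, to within 0.01 of that step. The array medians of the deposited log2 ratios were 0.04, -0.08 and -0.06, and how the authors centred the arrays stays unknown. The sources used here do not give the dyes, scanner, background correction or normalization. The table has no intensities, so dim and saturated spots stayed in and abundance could not be checked. Precision is limited by the number of arrays.

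Of the spots, 15655 had 1 gene in the platform's annotation, while 198 with several genes and 4147 with no listed gene were not used. Symbols were updated through RefSeq (WBcel235), and spots of a gene were averaged. Each gene's mean was tested against 0 with limma 3.58.1 (R 4.3.3, lmFit and eBayes), a test that leaves out the reference's own spread. The fit was also run on simulated data. These were drawn independently for each gene and array with no error of the reference, so they do not bear on that limit. Channel and stage cannot be told apart, because the staged RNA was in channel 2 throughout. Family members may share signal; no sequences were used. All members are named, since the rule named every member of families of 6 or fewer and the highest, lowest and failing members of larger ones. The others, nspd-1, nspd-2, ssp-9, ssp-11, ssp-31, ssp-34 and ssp-36, were named after their values were seen, as were msp-38, msd-1, msd-2 and neighbouring genes. Of the other sperm genes the rule named the 3 highest and 3 lowest. Members and lists were chosen with earlier results of these data known. Alternatives changed the arrays used, centring, scale, weights, variance estimate, repeated spots, symbols, missing values and threshold.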

Additional observations from a re-analysis of the deposited data

How the results depend on the processing

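No paired analysis was possible because all 3 arrays belong to 1 group and the reference is common. The count of members called higher was 28, and 24 to 28 when a prep was left out and 24 to 29 under the other alternatives. The count called lower was 3, or 2 to 3 under every alternative. Their median of 1.73 ranged from 1.57 to 1.81 without a prep and from 1.68 to 1.76 otherwise. The count over all genes, 3126, was 1763 to 2901 without a prep (1763 without prep 1) and 1605 at a threshold of 0.01, where fewer calls follow from the threshold itself. Without prep 1, 62.1% of calls were higher, against 54.7%. Of the 39 members, 31 kept their sign and their side of the threshold under all alternatives that keep the threshold. The value of ssp-10, near 0, ranged from -0.23 (without prep 1) to 0.17 (without prep 2) when a prep was left out, and was negative at -0.019 after scaling and -0.071 with array weights. The call of nspc-9 was also lost with median centring (-1.53), centring within runs of spot numbers (-1.46), array weights (-1.28) and robust variances. That of ssp-11 was lost with run centring (0.84) and array weights (0.85), while nspa-1 passed with run centring (0.93), scaling (0.82) and robust variances; the cause was not tested. Filters on dim spots and other background corrections were not run, since the table holds ratios alone.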

Other observations

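The nspb genes, group B of the nematode-specific peptides, stood between the nspd and nspc genes and close to the nspa genes. The median of the gene means was 0.79 for nspb and 0.84 for nspa. Of 9 nspb genes measured, 2 were higher (22.2%, against 11.3% of all genes) and 7 did not pass. Those higher were nspb-10 at 1.72 ± 1.25 (limma adjusted p = 0.00903) and nspb-2 at 1.34 ± 1.21 (limma adjusted p = 0.0273). These 2 were named after their values were seen. The gene nspb-10 stood at 0.42, 1.82 and 2.91 in preps 1, 2 and 3, and nspb-2 at 0.44, 0.88 and 2.71. Prep 3 was highest for 8 of the 9 genes, against 4960 of all 15119 genes. The nspb medians were 0.42, 0.44 and 1.55 in preps 1, 2 and 3. Prep 3 also held the highest median of the 7 adult cuticle genes, at 2.48 against 1.29 and 1.82 in preps 1 and 2. This was not particular to these 2 groups. The medians of all 39 members (2.04) and of the msp genes (3.03) were highest in prep 3 too, while that of the ssq genes was lowest there (2.47). Whether the nspb and cuticle genes go together was not tested.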
